A study of Homo sapiens with 12 samples.

Results

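Transcripts of 10 regulators of MAP kinase and receptor signalling were followed in REC1, a cell line established from mantle cell lymphoma, a B-cell cancer. The 10 are 6 dual specificity phosphatases (DUSP1, DUSP2, DUSP5, DUSP6, DUSP10 and DUSP22), 2 Sprouty genes (SPRY1 and SPRY2) and 2 Sprouty-related genes (SPRED1 and SPRED2). They were chosen by name, as the rows of the count table whose Ensembl identifier carries one of these symbols, so all 10 were found among 60483 identifiers. All 10 were also among the 14412 genes that passed the filter on low counts. Cells received DMSO (the solvent control), ibrutinib, SPX5551, or ibrutinib with SPX5551 (the combination), and were collected after 4, 8 or 12 h, which gave 12 libraries with no treatment repeated at a time. Ibrutinib is a covalent inhibitor of BTK, a kinase that passes on B-cell receptor signals. SPX5551, called pol5551 in the file headers, is the agent with which the study blocks the chemokine receptor CXCR4. The sources used here give no doses. No group was genetically modified, and every library came from this 1 line.

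When the B-cell receptor is engaged, BTK and its partners activate RAS, which switches on the kinases RAF, MEK and ERK in turn. ERK then induces transcripts of its own inhibitors. Dual specificity phosphatases remove phosphate from both the threonine and the tyrosine that activate a MAP kinase: DUSP1, DUSP2 and DUSP5 work in the nucleus, DUSP6 works on ERK in the cytoplasm, and DUSP10 prefers the stress kinases JNK and p38. DUSP22 is a small phosphatase without the docking domain of that family, best known as a restraint on antigen receptor signals. Sprouty and SPRED proteins act upstream, between receptors and RAF, and SPRED1 brings the RAS inactivator neurofibromin to the membrane.

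The libraries held 19336303 to 28934030 counts. Values are given as CPM, counts scaled to a common library size of 1e+06 after TMM scaling (trimmed mean of M values, which corrects for differences in RNA makeup). The 3 times served as replicates of a treatment (n = 3). The labels name no separate cultures, so the spread behind each p-value is that between these libraries and may be technical. The labels contradict each other: the column headers, used throughout, fit the titles and the treatment field, while each free-text description points to a column of the same time but a different treatment. The 3 ibrutinib columns carry the short name ibr and were placed by the treatment and time in that header. Libraries also differed along a trend with transcript length. Across genes within a library, Spearman's rho between length and the deviation from the mean was lowest with SPX5551 at 8 h (-0.398) and highest with ibrutinib at 8 h (0.407). Of 7 B-cell markers all were measured, with a summed level of 2719 to 3927 CPM. The mantle cell lymphoma gene CCND1 was at 1274 to 1760 CPM, whereas SOX11 (4.41 to 7.20 CPM) and CD5 (0.0495 to 0.695 CPM) were low. Of 8 myeloid markers 3 were at 0 in all libraries, with a summed level of 1.04 to 2.14 CPM, and 10 stromal and epithelial markers summed to 67.7 to 133 CPM.

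DUSP2 and DUSP5 dominated the set and most of the remaining genes were scarce. On the scale of CPM per kb of exon length, which allows genes to be compared, the DMSO libraries gave DUSP2 a level of 26.5 ± 5.9 (SD, n = 3), DUSP5 18.9 ± 4.3, and DUSP22 7.85 ± 0.97. Next came SPRY1 at 1.46 ± 0.32, DUSP1 at 1.12 ± 0.12, SPRED1 at 0.853 ± 0.089, DUSP10 at 0.613 ± 0.079 and SPRY2 at 0.284 ± 0.072. DUSP6 stood at 0.123 ± 0.040 and SPRED2 at 0.106 ± 0.039. The ranges over the DMSO libraries overlapped between DUSP2 and DUSP5, between SPRY1 and DUSP1, and between DUSP6 and SPRED2, so the order within these pairs is not settled. DUSP6, a phosphatase often read as a sign of ERK activity, had 7 to 24 counts per library, SPRY2 had 9 to 28 and SPRED2 6 to 17. At this depth only large changes of these 3 genes could be seen.

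Several relatives were scarcer still. DUSP4, a nuclear ERK phosphatase, SPRY3 and SPRY4 had at most 1 count in any library and were not tested. Of the other phosphatases, DUSP16, which acts on JNK and p38, was at 24.1 to 46.0 CPM, and DUSP7, a cytoplasmic ERK phosphatase related to DUSP6, at 9.42 to 13.2 CPM. DUSP8 was at 0.617 to 3.62 CPM and DUSP9 at 0.460 to 0.996 CPM. DUSP6, the relative of DUSP7, was at 0.249 to 1.05 CPM. These CPM values are not scaled by exon length, so they do not rank the genes.

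**Figure D1:**
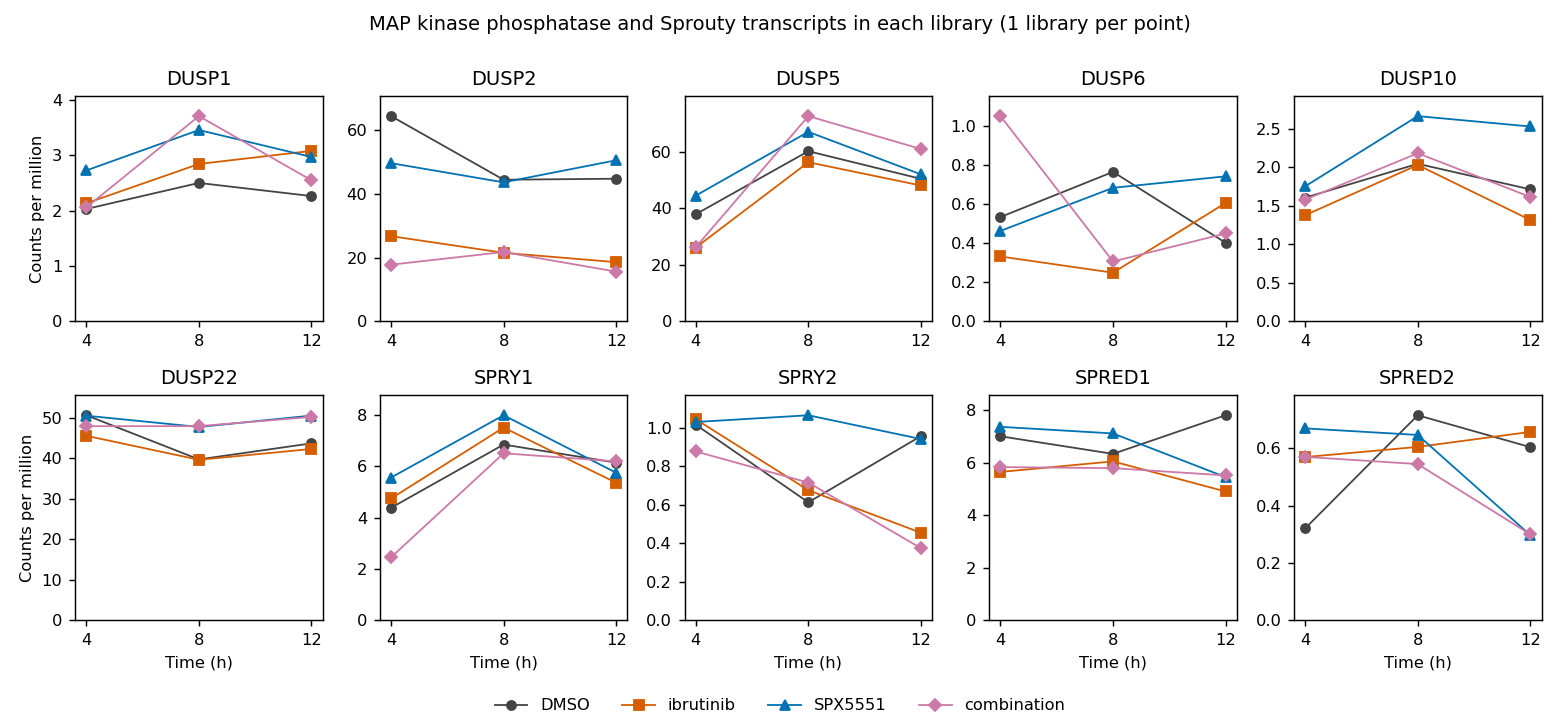
CPM (y axis, from 0, its own scale in each panel) of the 10 genes against time in h (x axis), 1 library per point, with lines joining the times of a treatment. In the DUSP2 panel both ibrutinib-exposed treatments lie at 15.6 to 26.7 CPM and both unexposed treatments at 43.6 to 64.4 CPM. In the other panels the ibrutinib-exposed and unexposed libraries overlap.

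DUSP2 was lower in every ibrutinib-exposed library than in any unexposed one. The DMSO libraries of 4, 8 and 12 h held 64.4, 44.4 and 44.7 CPM. With SPX5551 the values were 49.6, 43.6 and 50.5 CPM. With ibrutinib they were 26.7, 21.5 and 18.5 CPM, and with the combination 17.8, 21.7 and 15.6 CPM. The highest exposed library (26.7 CPM) thus lay below the lowest unexposed one (43.6 CPM). Behind these values stood 367 to 1205 counts per library. Of all tested genes, 0.5% had all 6 exposed libraries below all 6 unexposed ones and 0.354% had them all above. Fewer cells that make a transcript and less of it per cell cannot be told apart in such bulk libraries.

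DUSP2 (chromosome 2, 96143166 to 96145440, minus strand, hg38) fell by 1.20 ± 0.14 on the log2 scale with ibrutinib versus DMSO (SE, n = 3; adjusted p = 0.00103, edgeR's quasi-likelihood test with Benjamini-Hochberg adjustment over all tested genes). It was the 1 member of 10 that passed. By the same test 0.104% of all tested genes were lower and 0% were higher with ibrutinib, so this fit called few genes of any kind. The total was unstable: 670 genes were called without the 12 h time point and 0 without the 4 h time point. With no time term the adjusted p of DUSP2 was 0.0717, and without the 4 h time point it was 0.0786, at log2 fold changes of -1.20 and -1.16. The remaining 9 members had log2 fold changes between -0.57 ± 0.53 (DUSP6) and 0.24 ± 0.20 (DUSP1).

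In the combination DUSP2 fell by 1.46 ± 0.14 versus DMSO (adjusted p = 6.06e-05, edgeR) and by 1.38 ± 0.14 versus SPX5551 alone (adjusted p = 1.30e-04). It was again the 1 member of 10 that passed in each comparison. Over all tested genes 5.41% were lower and 4.16% higher versus DMSO, and 3.97% lower and 3.27% higher versus SPX5551. Both comparisons use the combination libraries, and the first shares its DMSO libraries with ibrutinib versus DMSO, so these values are not separate evidence. The median log2 fold change of the 10 members was -0.11 versus DMSO and -0.21 versus SPX5551, beside 0.02 for all tested genes in both.

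With all libraries used, 6 exposed to ibrutinib against 6 unexposed, DUSP2 fell by 1.29 ± 0.10 (95% interval -1.50 to -1.09; adjusted p = 7.94e-07, edgeR), to 0.409 of its unexposed level. By time, in the order 4, 8 and 12 h, exposed and unexposed libraries differed by -1.37, -1.02 and -1.48. Here 6.58% of all tested genes were lower and 7.14% higher, and 1 member of 10 was lower and 0 higher. Over the 12 libraries DUSP2 and the length trend had r = -0.53, given as a description. With the length and GC trend removed, DUSP2 was again called lower. Of 7 T-cell markers 4 were tested and TRAC fell with ibrutinib exposure (-1.17 ± 0.27), at 0.136 to 1.71 CPM. The other 3 did not pass: CD3D was at -0.13 ± 0.13, CD3E at 0.02 ± 0.14 and LCK at -0.10 ± 0.09. Of 7 tested stromal and epithelial markers EPCAM fell by 0.40 ± 0.13 and PECAM1 rose by 0.26 ± 0.08. The summed T-cell markers were at 15.7 to 18.6 CPM in DMSO, 15.2 to 18.3 CPM with ibrutinib, 15.6 to 19.2 CPM with SPX5551 and 12.5 to 19.8 CPM with the combination. Their part in the result was not tested.

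**Figure D2:**
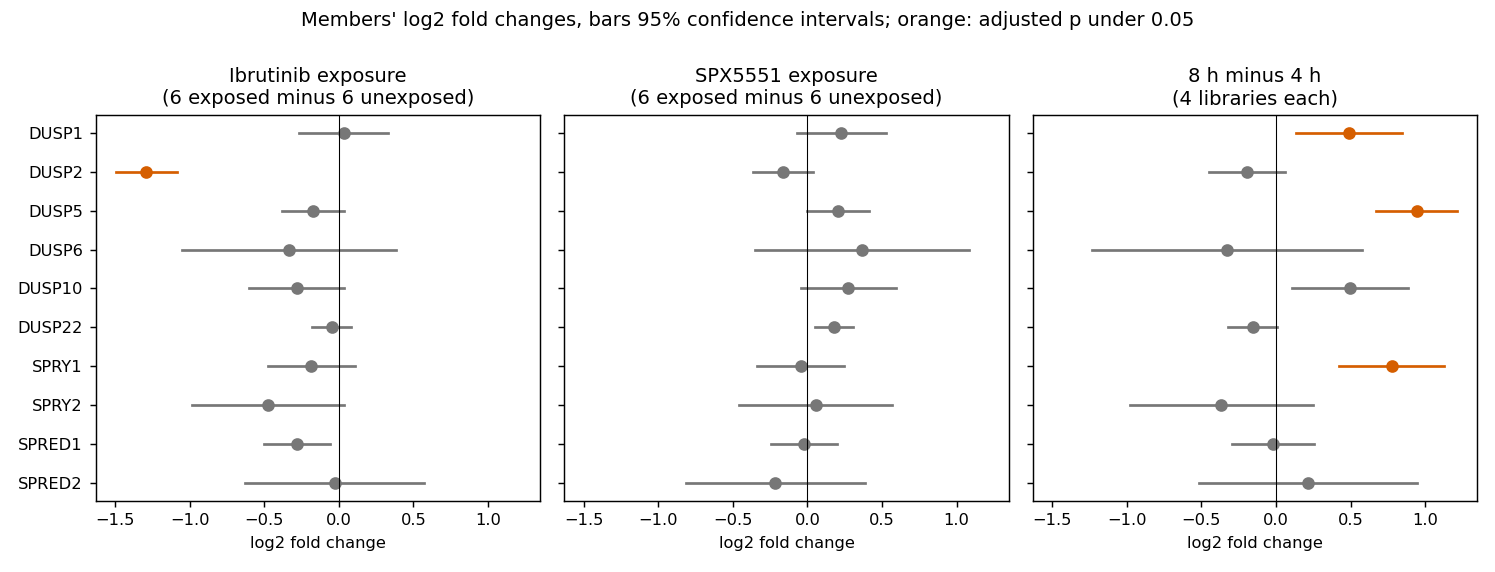
Log2 fold changes (x axis) of the 10 genes (y axis) with 95% confidence intervals from edgeR, for ibrutinib exposure, SPX5551 exposure and 8 h against 4 h; orange marks an adjusted p under 0.05. DUSP2 passes for ibrutinib exposure at -1.29, no gene passes for SPX5551 exposure, and DUSP1, DUSP5 and SPRY1 pass at 8 h.

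The promoters of the members that passed a test are shown: DUSP2, which was lower with ibrutinib, and DUSP1 and SPRY1, which passed at 8 h versus 4 h. RefSeq promoter windows on GRCh38.p14, from 250 bases before to 50 bases after a gene's start, were found for 9 of the 10 members, all but DUSP5. The strand is the gene's own and all are written 5′ to 3′. Capitals mark letters that match a searched motif on either strand.
DUSP2, chr2:96145391-96145690, minus strand: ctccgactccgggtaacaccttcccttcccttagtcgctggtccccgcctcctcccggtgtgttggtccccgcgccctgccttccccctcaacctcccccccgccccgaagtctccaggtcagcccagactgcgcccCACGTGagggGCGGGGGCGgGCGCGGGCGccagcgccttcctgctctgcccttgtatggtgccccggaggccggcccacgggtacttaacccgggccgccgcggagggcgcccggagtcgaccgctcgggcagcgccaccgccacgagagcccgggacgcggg
DUSP1, chr5:172771146-172771445, minus strand: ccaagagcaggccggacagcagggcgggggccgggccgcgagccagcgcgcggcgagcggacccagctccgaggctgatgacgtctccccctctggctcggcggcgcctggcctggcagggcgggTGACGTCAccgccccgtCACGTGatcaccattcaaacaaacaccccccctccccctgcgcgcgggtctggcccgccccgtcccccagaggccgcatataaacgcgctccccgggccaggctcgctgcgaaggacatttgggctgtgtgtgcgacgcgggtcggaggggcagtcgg
SPRY1, second start, chr4:123398136-123398435, plus strand: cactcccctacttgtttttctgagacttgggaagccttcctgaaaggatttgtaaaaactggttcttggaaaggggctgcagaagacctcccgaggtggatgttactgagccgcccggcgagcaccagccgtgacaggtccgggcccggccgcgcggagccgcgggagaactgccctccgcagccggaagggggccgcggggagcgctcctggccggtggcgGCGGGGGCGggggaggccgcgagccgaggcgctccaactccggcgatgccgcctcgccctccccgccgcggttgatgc
The search covered both strands for the cyclic AMP response element (TGACGTCA), the E-box (CACGTG), the AP-1 site (TGANTCA), an ETS site (CCGGAAGT), an EGR site (GCGNGGGCG), the CArG box and the kappaB site. The DUSP2 window held 1 E-box and 2 EGR matches, which lie between 113 and 85 bases before the start. The DUSP1 window held 1 cyclic AMP response element and 1 E-box. The second SPRY1 window held 1 EGR match and its first window held none of the motifs. Members that passed no test held matches too: 2 EGR matches in the first SPRY2 window and 2 AP-1 matches in the second SPRED2 window. Of 35116 windows of this length, 9.43% held the EGR motif, 7.26% the E-box, 1.85% the cyclic AMP response element, 7.71% the AP-1 site, 4.14% the ETS site, 1.29% the CArG box and 11.3% the kappaB site. These are matches of letters and show no binding.

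DUSP5, the other abundant ERK phosphatase, did not follow DUSP2. In the order 4, 8 and 12 h, DMSO gave 37.9, 60.2 and 50.4 CPM and ibrutinib 26.1, 56.3 and 48.1 CPM. SPX5551 gave 44.5, 67.1 and 52.0 CPM and the combination 26.2, 72.6 and 61.0 CPM. Both exposed libraries were below both unexposed ones at 4 h, and the treatments overlapped at 8 and 12 h. How many of all tested genes separate in this way at 4 h was not counted. Exposed minus unexposed libraries gave -0.65, 0.01 and 0.08 on the log2 scale for 4, 8 and 12 h. Over the times the log2 fold change for ibrutinib exposure was -0.17 ± 0.10 (95% interval -0.38 to 0.04; adjusted p = 0.245, edgeR). The test of whether the ibrutinib effect differed between times gave DUSP5 an unadjusted p of 0.00128 and an adjusted p of 0.999993 in edgeR, so it did not pass.

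**Figure D3:**
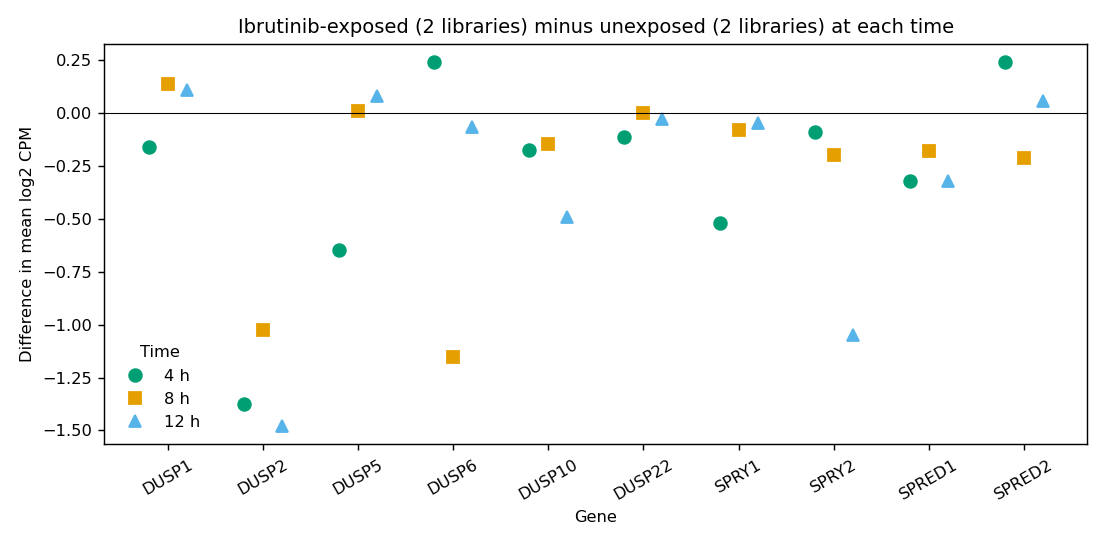
Mean log2 CPM of the 2 ibrutinib-exposed libraries minus that of the 2 unexposed libraries (y axis) for each gene (x axis) at 4, 8 and 12 h. DUSP2 lies between -1.48 and -1.02 at all times, while DUSP5 is at -0.65 at 4 h and close to 0 later.

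The difference between DUSP2 and DUSP5 was also tested. The pairs of members were chosen with earlier results of these data known, so these p-values are no independent support. Even at the smallest p, passing depends on how many pairs were chosen. Among 5 pairs of members, the ibrutinib effect on DUSP2 was 1.11 lower on the log2 scale than that on DUSP5, at -0.72, -1.03 and -1.56 for 4, 8 and 12 h (two-sided exact permutation test within times over 216 assignments, p = 0.00926, the smallest these allow; adjusted p = 0.0463 over the 5 pairs). DUSP2 and DUSP6 differed by -0.97 (exact permutation p = 0.0463, adjusted p = 0.116), which did not pass. The values of that pair were -1.61 at 4 h, 0.13 at 8 h and -1.42 at 12 h. DUSP5 and DUSP6 differed by 0.14 (exact p = 0.796), SPRY1 and SPRY2 by 0.23 (exact p = 0.380), and SPRED1 and SPRED2 by -0.30 (exact p = 0.296). None of these 3 pairs passed, with adjusted p-values of 0.796, 0.475 and 0.475. With 2 times in place of 3 the test cannot pass for any pair.

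The makeup of the 6 phosphatase transcripts rests on the same CPM values and was not tested. Counted per kb, DUSP2 made up 47.8% ± 8.2 (SD, n = 3) of the 6 in DMSO and 43.8% ± 5.2 with SPX5551, against 31.2% ± 8.8 with ibrutinib and 24.3% ± 6.3 with the combination. DUSP5 held 34.6% ± 8.8 in DMSO, 43.5% ± 11.8 with ibrutinib, 36.5% ± 6.0 with SPX5551 and 48.3% ± 12.3 with the combination. DUSP22 held 14.2% ± 1.4 in DMSO and 22.1% ± 6.0 with the combination. The 4 h libraries had the highest DUSP2 share within each treatment, from 31.2% with the combination to 57.1% in DMSO. Exposed and unexposed shares overlapped, since ibrutinib at 4 h (41.4%) lay above SPX5551 at 8 h (38.01%). As shares of 1 total these values are not independent of each other.

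**Figure D4:**
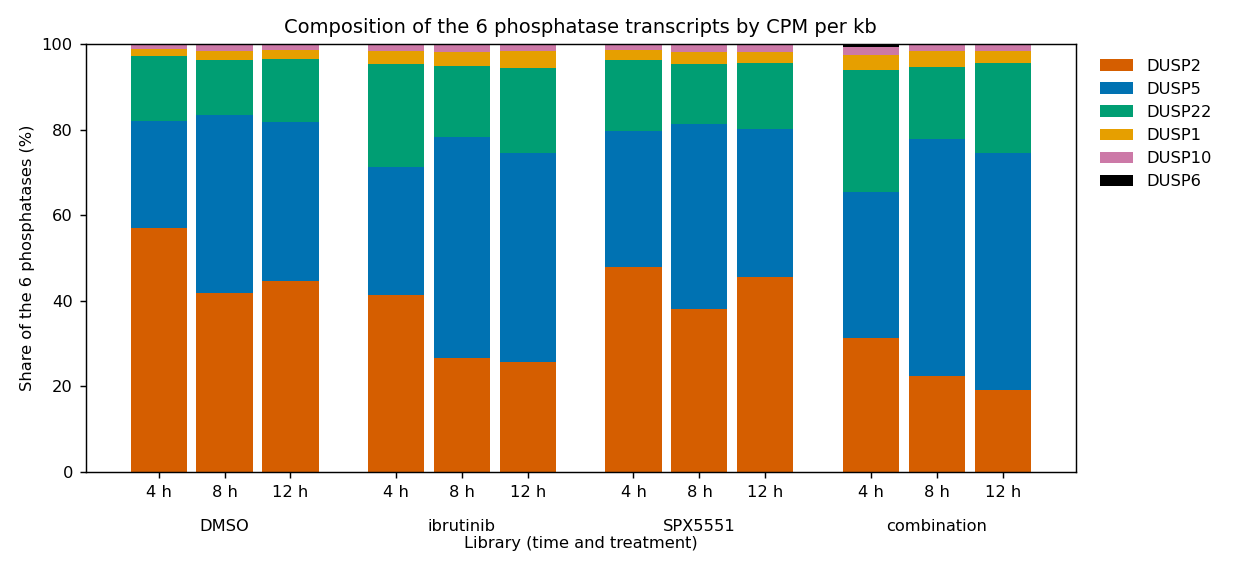
Share in percent (y axis) of each phosphatase in the summed CPM per kb of the 6, 1 bar per library (x axis: time and treatment). The DUSP2 share is 41.7 to 57.1% in DMSO and 38.01 to 47.9% with SPX5551, against 25.6 to 41.4% with ibrutinib and 19.1 to 31.2% with the combination, and DUSP5 takes up to 55.4% with the combination.

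DUSP6 showed no pattern beyond its low counts. In the order 4, 8 and 12 h, DMSO gave 0.534, 0.766 and 0.403 CPM and ibrutinib 0.332, 0.249 and 0.606 CPM. SPX5551 gave 0.463, 0.684 and 0.743 CPM and the combination 1.05, 0.306 and 0.450 CPM. The groups overlapped, and the highest and nearly the lowest of these values belong to the combination. The log2 fold change for ibrutinib exposure was -0.34 ± 0.34 (95% interval -1.05 to 0.38), an interval on both sides of 0, and it did not pass.

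DUSP1, an immediate early phosphatase that favours p38 and JNK, was at 2.03 to 3.71 CPM. The ibrutinib-exposed libraries had 2.06 to 3.71 CPM (median 2.70) and the unexposed ones 2.03 to 3.46 CPM (median 2.61), with a log2 fold change of 0.03 ± 0.14. Its 3 libraries with SPX5551 alone, at 2.73, 3.46 and 2.97 CPM, were each above the DMSO library of the same time, at 2.03, 2.50 and 2.26 CPM. This difference of 0.43 ± 0.20 did not pass (adjusted p = 0.598, edgeR). DUSP10 was at 1.31 to 2.66 CPM, with -0.28 ± 0.15 for ibrutinib exposure (adjusted p = 0.209) and 0.27 ± 0.15 for SPX5551 exposure (adjusted p = 0.253).

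DUSP22 was the steadiest of the set, at 39.6 to 50.6 CPM in all 12 libraries. Its log2 fold change for ibrutinib exposure was -0.05 ± 0.06 (95% interval -0.18 to 0.08), an interval that excludes a change of the size seen for DUSP2. For SPX5551 exposure it was 0.18 ± 0.06 (95% interval 0.05 to 0.31; adjusted p = 0.0821, edgeR), which did not pass. By time its values were 50.4, 47.7 and 50.5 CPM under SPX5551 and 47.9, 47.9 and 50.1 CPM under the combination. DMSO gave 50.6, 39.7 and 43.6 CPM and ibrutinib 45.5, 39.6 and 42.2 CPM. The SPX5551-exposed and unexposed libraries overlapped through the 4 h DMSO library.

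Neither Sprouty gene passed a treatment comparison. The SPRY1 values by time were 4.38, 6.84 and 6.14 CPM under DMSO and 4.74, 7.50 and 5.36 CPM under ibrutinib. SPX5551 gave 5.56, 7.98 and 5.75 CPM and the combination 2.45, 6.50 and 6.19 CPM. The 4 h combination library, at 56 counts, was the lowest of the 12, and at 8 and 12 h the treatments lay close together. The log2 fold change for ibrutinib exposure was -0.18 ± 0.14 (95% interval -0.48 to 0.11). SPRY2 was at 0.375 to 1.06 CPM, and its ibrutinib exposure value was -0.47 ± 0.24 (95% interval -0.99 to 0.04; adjusted p = 0.189, edgeR). Its lowest pair of libraries were those with ibrutinib and the combination at 12 h, at 0.455 and 0.375 CPM (9 and 10 counts).

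SPRED1, which recruits neurofibromin, was at 7.00025, 6.33 and 7.80 CPM under DMSO, in the order 4, 8 and 12 h, and at 7.36, 7.11 and 5.45 CPM under SPX5551. Under ibrutinib it was at 5.64, 6.05 and 4.90 CPM, and under the combination at 5.83, 5.79 and 5.51 CPM. The 12 h SPX5551 library was the 1 unexposed library inside the exposed range. The log2 fold change for ibrutinib exposure was -0.28 ± 0.11 (95% interval -0.50 to -0.06; adjusted p = 0.0804, edgeR). It did not pass, but it did in the fit with the length and GC trend removed, where DUSP2 and SPRED1 were the 2 members called lower. SPRED2 was at 0.297 to 0.715 CPM, with -0.03 ± 0.28 for ibrutinib exposure (95% interval -0.63 to 0.57), a width set by its 6 to 17 counts.

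For SPX5551 alone versus DMSO 0 members passed, and 0% of all tested genes were lower and 0% higher (edgeR), although 1200 genes had an unadjusted p below 0.05. The alternatives with limma (voom and trend) and with DESeq2 called 0 genes as well, and edgeR with no filter called 112. In DUSP2 the log2 fold change was -0.08 ± 0.13 (95% interval -0.36 to 0.21). Added to ibrutinib, SPX5551 again gave 0 members, beside 3.39% of all tested genes lower and 2.1% higher. DUSP2 was at -0.26 ± 0.14 for the combination versus ibrutinib (95% interval -0.56 to 0.04; adjusted p = 0.271). With the length and GC trend removed it was the 1 member called in that comparison. For SPX5551 exposure, 6 libraries against 6, 0 members passed, beside 4.89% of all tested genes lower and 2.12% higher. The members' median log2 fold change there was 0.12, beside 0.01 for all tested genes.

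The ibrutinib effect was not shown to depend on SPX5551. The interaction, the combination minus each agent alone plus DMSO on the log2 scale, was called in 0 members, and in 0% of all tested genes lower and 0% higher (edgeR; 845 genes had an unadjusted p under 0.05, DESeq2 called 2 and both limma fits 0). For DUSP2 it was -0.19 ± 0.19 (95% interval -0.60 to 0.23; adjusted p = 0.986). Whether the ibrutinib effect differed between times was called in 0 members and 0% of all tested genes (edgeR; 252 had an unadjusted p under 0.05, DESeq2 called 2 and both limma fits 0).

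Culture time was compared over the 4 treatments. Each time carries its own replicate number, so differences between times and between replicates cannot be told apart. At 8 h versus 4 h, DUSP5 rose by 0.94 ± 0.13 on the log2 scale (SE, 4 libraries a time; adjusted p = 1.52e-04, edgeR), SPRY1 by 0.77 ± 0.17 (adjusted p = 0.00325) and DUSP1 by 0.49 ± 0.17 (adjusted p = 0.0405). The 4 libraries at 8 h had 56.3 to 72.6 CPM of DUSP5 and those at 4 h 26.1 to 44.5 CPM. SPRY1 had 6.50 to 7.98 CPM at 8 h and 2.45 to 5.56 CPM at 4 h, and DUSP1 overlapped at 2.50 to 3.71 and 2.03 to 2.73 CPM. How many of all tested genes separate by time was not counted, so these ranges only describe. So 3 members of 10 rose and 0 fell, beside 13.1% of all tested genes higher and 13.4% lower. DUSP10 was at 2.03 to 2.66 CPM against 1.38 to 1.75 CPM, and its 0.50 ± 0.18 did not pass (adjusted p = 0.0564, edgeR). With the length and GC trend removed DUSP10 was called higher, and DUSP2 and DUSP22 were called lower. The call of DUSP1 was lost in DESeq2, after removal of the length and GC trend, and on leaving out any 1 of 7 libraries: DMSO at 4, 8 or 12 h, ibrutinib at 4 h, SPX5551 at 8 h, or the combination at 4 or 8 h. Its adjusted p then reached 0.197, without the 8 h combination library.

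At 12 h versus 4 h, DUSP5 rose by 0.67 ± 0.13 (adjusted p = 0.00105, edgeR), with 48.1 to 61.0 CPM at 12 h. SPRY1 rose by 0.49 ± 0.17 (adjusted p = 0.0354), with 5.36 to 6.19 CPM against 2.45 to 5.56 CPM. Thus 2 members of 10 rose and 0 fell, beside 18.4% of all tested genes higher and 17.5% lower. SPRY1 was no longer called without any 1 of 6 libraries: DMSO at 4, 8 or 12 h, SPX5551 at 8 h, or the combination at 4 h (0.27 ± 0.14) or 12 h (0.33 ± 0.17). It was also not called without the 8 h time point. DUSP2 was at -0.30 ± 0.12 (adjusted p = 0.0583) and was called lower in 9 of 22 alternatives. These were DESeq2, no filter, the length and GC trend removed, and the fits without the 8 h time point, without SPX5551 at 4 or 12 h, without the combination at 4 or 8 h, or without both ibrutinib at 8 h and SPX5551 at 12 h. Over the 12 libraries DUSP5 and SPRY1 ran together (Pearson's r = 0.843, Spearman's rho = 0.881), whereas DUSP2 and DUSP5 did not (r = 0.06, rho = -0.168); these libraries share times and treatments, so the values only describe. B-cell markers moved with time as well: 5 of 7 rose at 8 h, among them CD79A by 0.51 ± 0.08 and CD22 by 0.37 ± 0.09, beside 13.1% of all tested genes. Of 7 tested stromal and epithelial markers 4 rose, among them KRT8 by 0.68 ± 0.17, and 1 fell, CDH1 by 1.45 ± 0.19. Of 4 tested T-cell markers LCK rose by 0.34 ± 0.11 and TRAC fell by 1.14 ± 0.32, and of 2 tested myeloid markers ITGAM rose by 1.69 ± 0.42. Their part in the result was not tested.

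Among genes that ERK induces, several fell in ibrutinib-exposed libraries. Of 18 such genes, all tested, 8 fell and 0 rose with ibrutinib exposure (edgeR), with a median log2 fold change of -0.44 beside 0.02 for all tested genes, of which 6.58% fell and 7.14% rose. The early growth response factors EGR3 (-3.32 ± 0.28), EGR2 (-2.38 ± 0.57) and EGR1 (-1.78 ± 0.27) fell most. FOSL1, an AP-1 subunit, fell by 1.09 ± 0.32 and the stress factor ATF3 by 0.82 ± 0.21. The nuclear receptor NR4A1 and the transcription factor MYC fell by 0.64 ± 0.12 each and IER2 by 0.32 ± 0.09. For ATF3 ibrutinib (-0.33 ± 0.28) and the combination (-0.22 ± 0.27) did not pass versus DMSO. Its highest libraries were those with SPX5551 alone, at 5.30 to 7.75 CPM beside 2.09 to 4.18 CPM in DMSO. MYC also fell with SPX5551 exposure (-0.41 ± 0.12) and for the combination versus ibrutinib (-0.65 ± 0.15). For ibrutinib alone versus DMSO MYC did not pass (-0.41 ± 0.15). IER2 passed versus DMSO neither with ibrutinib (-0.45 ± 0.12) nor with the combination (-0.07 ± 0.12). EGR2, EGR3 and FOSL1 were scarce, at up to 0.908, 2.72 and 0.748 CPM. EGR2 had 0 counts in the combination libraries of 4 and 12 h, so its fitted change depends on the prior count. With no time term 1 of the 18 passed, and without single time points 4 or 5 did. Leaving out single libraries gave 4 (without the 12 h combination library) to 9. For the combination versus DMSO 5 fell and 1 rose, FOSB (1.23 ± 0.36), beside 5.41% of all tested genes lower and 4.16% higher, and for ibrutinib versus DMSO EGR3 alone passed, beside 0.104% lower.

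**Figure D5:**
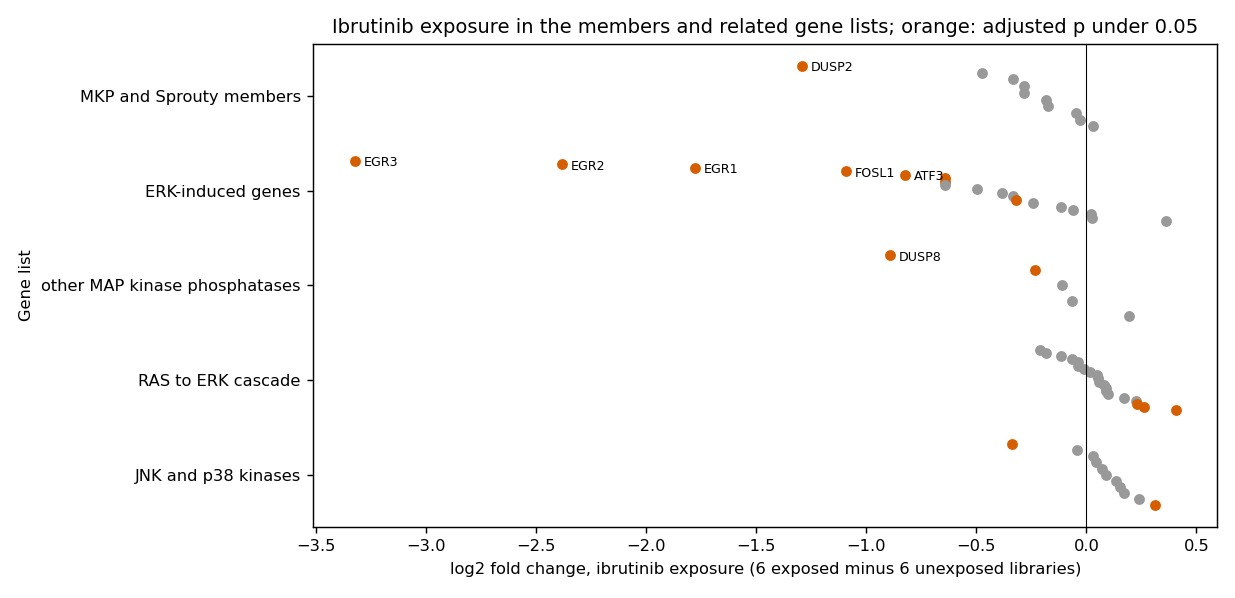
Log2 fold change for ibrutinib exposure (x axis) of each tested gene in 5 lists (y axis, genes spread within a row in order of value); orange marks an adjusted p under 0.05 in edgeR. The ERK-induced genes reach -3.32, whereas the RAS to ERK cascade stays between -0.21 and 0.41.

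The counts for the pathway's components are to be read against the 7.14% of all tested genes that rose and the 6.58% that fell with ibrutinib exposure. Of 20 genes from RAS activators to ERK and its kinases, 3 rose and 0 fell with ibrutinib exposure, among them the RAS exchange factors SOS2 (0.41 ± 0.09) and SOS1 (0.26 ± 0.09). Their median was 0.06. Of 7 RAS inactivators DAB2IP rose (0.34 ± 0.11). Of 11 JNK and p38 kinases, MAPK8 (JNK1) rose by 0.31 ± 0.07 and MAPK13, a p38 kinase, fell by 0.34 ± 0.08. Of 6 partners of Sprouty proteins the ubiquitin ligase CBL rose by 0.34 ± 0.11 and the kinase TESK1 by 0.24 ± 0.07. With the length and GC trend removed, 1 gene of the first list rose and 1 fell, and of the Sprouty partners 1 fell and 0 rose. With no time term 0 genes of these 4 lists passed.

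The counts for phosphatases outside the set stand beside the same shares of all tested genes, 6.58% lower and 7.14% higher with ibrutinib exposure. Of 5 tested other MAP kinase phosphatases 2 fell and 0 rose with ibrutinib exposure. DUSP8, which acts on JNK, fell by 0.89 ± 0.24 and the catalytically dead relative STYXL1 by 0.23 ± 0.08. Neither passed without a time term, nor on leaving out any 1 time point. Versus DMSO, DUSP8 passed neither with ibrutinib (-0.57 ± 0.34) nor with the combination (-0.81 ± 0.34). With SPX5551 alone DUSP8 was at 1.39 to 3.62 CPM, beside 1.43 to 2.57 CPM in DMSO. Of 10 other atypical dual specificity phosphatases DUSP18 rose by 0.36 ± 0.12, and SPRED3, the 1 tested gene of the other Sprouty and SPRED genes, was at 0.18 ± 0.25. With SPX5551 exposure DUSP16 fell by 0.37 ± 0.09, beside 4.89% of all tested genes lower, and it fell by 0.56 ± 0.10 for the combination versus ibrutinib, beside 3.39% lower. RASGRP1, a RAS exchange factor of lymphocytes, fell in these comparisons by 0.43 ± 0.11 and 0.62 ± 0.14.

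The genes whose profile over the 12 libraries was most like that of DUSP2 were PLK3, SIAH2, RHOV, NFKBIA and CSF1, chosen as the 5 highest Pearson correlations of log2 CPM among 10112 genes with a mean log2 CPM of at least 2. PLK3, a stress-responsive kinase, had r = 0.959, the ubiquitin ligase SIAH2 0.939, RHOV 0.927, the NF-kappaB inhibitor NFKBIA 0.926 and the macrophage growth factor CSF1 0.920. Spearman's rho was 0.916 for PLK3, SIAH2, RHOV and NFKBIA and 0.923 for CSF1, and 1% of the genes compared had r above 0.815. All 5 fell with ibrutinib exposure, from -0.59 ± 0.07 (SIAH2) to -1.02 ± 0.12 (NFKBIA), as the choice by likeness to DUSP2 favours. Promoter windows were found for 4 of the 5. The windows of RHOV and NFKBIA each held 1 kappaB match, which that of DUSP2 did not, and SIAH2 held 1 E-box.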

How the data were processed

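REC1 libraries were made, per the labels' protocols, from poly(A)-selected RNA with a directional kit, although the molecule field reads genomic DNA. BWA and the build hg38 are named per the submitters' processing notes. The sources used here give no counting tool, annotation or strand setting. The authors deposited whole-number counts per Ensembl gene for 60483 identifiers, and a table of log2 CPM for 14767 genes, whose normalization is not given. Columns were mapped by the treatment and time in their headers. Symbols, positions and exon lengths came from GENCODE release 29 (93.8% of identifiers had a symbol).

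Genes were filtered with filterByExpr by treatment and scaled by TMM in edgeR 4.0.16 (R 4.3.3). The quasi-likelihood F-test used treatment and time as additive terms, or time with ibrutinib and SPX5551 exposure, with Benjamini-Hochberg adjustment at 0.05. A standard error was taken as the size of the log2 fold change over the root of F. Log2 CPM carried a prior count of 2. Times, which each treatment shares, were the block. Overlapping antisense transcripts had at most 3 counts. Alternatives were DESeq2 1.42.0, limma 3.58.1 on the deposited log2 CPM and with voom, other scaling, no filter, no time term, libraries left out, a length and GC trend removed, and columns by description. The edgeR test was also run on simulated counts that had no time effect and no length trend. That run does not show how the test performs on these libraries, which have both. The members, lists, tests and pairs were chosen with earlier results of these data known. All members are described in each comparison. Of the lists, counts are given, with values for genes that passed, mainly for ibrutinib exposure. Values of some listed genes are not reported here.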

Additional observations from a re-analysis of the deposited data

How the results depend on the processing

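Under 26 alternatives DUSP2 kept its direction and its call for ibrutinib versus DMSO in 23, for the combination versus DMSO in 25 and for the combination versus SPX5551 in 25; for ibrutinib exposure it did so in 24 of 25. The exception common to all is the pairing of columns by the free-text descriptions, which exchanges treatments, so that DUSP2 turned to 1.46, 1.38, 1.12 and 1.29 in these 4 comparisons by construction. In all other alternatives it stayed between -1.72 and -1.08. The replicate block is time: with no replicate block 0 members passed for ibrutinib versus DMSO, and leaving out time points or single libraries gave 0 to 1; it changed no other count of members among the treatment comparisons. Over all tested genes the calls went from 1978 to 29 for ibrutinib exposure, 1379 to 27 for the combination versus DMSO and 15 to 0 for ibrutinib versus DMSO without the block, and with no filter ibrutinib versus DMSO gave 216. Leaving out the 4, 8 or 12 h time point moved these totals too. Ibrutinib exposure then gave 671, 83 and 182 calls, and ibrutinib versus DMSO 0, 17 and 670. SPX5551 exposure went from 1011 to 637, 0 and 0, and the combination versus ibrutinib from 791 to 2, 6 and 1643. With the length and GC trend removed, the members called were 1 for the combination versus ibrutinib (DUSP2) and 2 for ibrutinib exposure. For SPX5551 exposure that fit called 2 (DUSP2 lower, DUSP22 higher). For 8 h versus 4 h it called 5: DUSP5, DUSP10 and SPRY1 higher, DUSP2 and DUSP22 lower. Leaving out single libraries gave 1 to 3 members for 12 h versus 4 h. DUSP5 at 8 and at 12 h and SPRY1 at 8 h kept their calls in 22 of 22 alternatives. Leaving out a time point moved the difference of DUSP2 and DUSP5 between -1.30 and -0.88, that of DUSP5 and DUSP6 between -0.37 (without 8 h) and 0.65, and that of SPRY1 and SPRY2 between -0.16 (without 12 h) and 0.56, with too few assignments to pass. Depth limits DUSP6, SPRY2 and SPRED2, with 6 to 28 counts per library.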

Other observations

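Phosphatases and RAS regulators outside the set also differed between times, which cannot be told apart from replicates. At 12 h versus 4 h, 5 of 10 other atypical dual specificity phosphatases fell and 0 rose (edgeR, adjusted over all tested genes), beside 17.5% of all tested genes lower: DUSP15 by 0.70 ± 0.18 on the log2 scale (SE, 4 libraries a time), DUSP14 by 0.43 ± 0.10, DUSP12 by 0.39 ± 0.10, DUSP3 by 0.35 ± 0.11 and DUSP11 by 0.29 ± 0.08. DUSP11 works on RNA rather than on a MAP kinase. Of 7 RAS inactivators 4 rose and 1 fell, beside 18.4% of all tested genes higher: among those that rose were DAB2IP by 1.22 ± 0.14, RASAL3 by 1.18 ± 0.10 and RASA1 by 0.29 ± 0.10, while RASA3 fell by 1.20 ± 0.20. Among RAS exchange factors, RASGRP2 rose by 0.67 ± 0.08 and RASGRP1 fell by 0.43 ± 0.12.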
